A study of Mus musculus with 12 samples.

Results

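The genes of neutrophil granules and neutrophil maturation were followed in mouse neutrophils with and without CARD9 that rested on albumin or on surface-bound immune complexes (IC). The set holds 34 genes, chosen by symbol for what their products are known to be, with earlier results of these data known. All 34 were measured, each by exactly 1 of the 28944 transcript clusters tested, where a cluster is the group of probes that the array assigns to a transcript. By the site of the product, 5 genes belong to primary granules, 9 to secondary granules, 2 to tertiary granules and 6 to other granules or secretions, 4 encode surface proteins, 5 encode proteins of the cytosol, nucleus or mitochondria, and 3 encode transcription factors.

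The cells were bone marrow neutrophils, labelled Ly6G+, of mice of either sex aged 2 to 6 months. Wild-type C57BL/6 mice were compared with Card9-/- mice, which carry the Card9 tm1Jrld deletion in all cells and had been backcrossed to C57BL/6 for at least 6 generations. Cells of each genotype stayed for 4 h at 37 °C on plastic coated with human serum albumin, the control surface, or with albumin and an antibody against it, the IC surface, and adherent and non-adherent cells were lysed together. The 4 groups were each measured once in 3 experiments, which gives 12 arrays and 3 arrays per group. CARD9 is an adaptor protein that links Syk-coupled receptors of myeloid cells to transcription, and the comparisons ask whether IC alters the members and whether this depends on CARD9.

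Granules are made in sequence while a neutrophil matures in the bone marrow. Primary granules form first, at the promyelocyte stage, and hold myeloperoxidase and serine proteases. Secondary granules follow with lactoferrin and other antimicrobial proteins, and tertiary granules come last and are rich in gelatinase. Messenger RNA for each set is high mainly while that set is being made, so the levels are commonly read as marks of maturation stage. Activated neutrophils release stored protein from these granules, a step that transcript levels do not measure.

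Promoters were available for 28 of the 34 members from RefSeq (build GRCm38.p6), and 250 bases before each start site were searched on both strands. The sequences below belong to the primary granule genes, to Fcnb, whose levels varied among experiments in the same manner as most of them, and to Ltf as an example of a secondary granule gene. Capitals mark matches to GAGGAAG or its reverse complement, a core of sites of the myeloid factor PU.1, and to TTNNGNAA, a form of the C/EBP site. All are printed 5′ to 3′ on the strand of the gene: Mpo at chr11:87793534-87793783 (plus strand), Elane at chr10:79886062-79886311 (plus strand), Prtn3 at chr10:79879417-79879666 (plus strand), Ctsg at chr14:56102575-56102824 (minus strand), Bpi at chr2:158257991-158258240 (plus strand), Fcnb at chr2:28084879-28085128 (minus strand) and Ltf at chr9:111019042-111019291 (plus strand).
Mpo: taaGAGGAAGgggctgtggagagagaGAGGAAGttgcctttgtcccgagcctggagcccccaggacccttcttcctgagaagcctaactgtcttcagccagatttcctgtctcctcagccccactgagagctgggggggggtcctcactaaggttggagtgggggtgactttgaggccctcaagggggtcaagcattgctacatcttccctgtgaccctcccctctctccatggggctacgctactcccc
Elane: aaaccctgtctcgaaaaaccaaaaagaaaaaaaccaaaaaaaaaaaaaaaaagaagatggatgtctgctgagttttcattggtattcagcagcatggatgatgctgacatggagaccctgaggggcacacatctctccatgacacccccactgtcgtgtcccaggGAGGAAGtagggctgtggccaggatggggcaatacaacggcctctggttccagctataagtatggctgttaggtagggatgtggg
Prtn3: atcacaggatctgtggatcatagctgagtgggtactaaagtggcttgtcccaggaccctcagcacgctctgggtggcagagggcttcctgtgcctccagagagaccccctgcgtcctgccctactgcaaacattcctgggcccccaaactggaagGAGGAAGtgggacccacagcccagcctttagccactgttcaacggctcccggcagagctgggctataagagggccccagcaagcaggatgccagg
Ctsg: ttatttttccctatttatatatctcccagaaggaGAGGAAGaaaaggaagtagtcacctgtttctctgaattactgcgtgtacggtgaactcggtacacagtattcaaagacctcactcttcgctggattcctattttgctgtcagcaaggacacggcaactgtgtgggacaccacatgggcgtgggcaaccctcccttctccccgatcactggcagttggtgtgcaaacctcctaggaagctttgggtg
Bpi: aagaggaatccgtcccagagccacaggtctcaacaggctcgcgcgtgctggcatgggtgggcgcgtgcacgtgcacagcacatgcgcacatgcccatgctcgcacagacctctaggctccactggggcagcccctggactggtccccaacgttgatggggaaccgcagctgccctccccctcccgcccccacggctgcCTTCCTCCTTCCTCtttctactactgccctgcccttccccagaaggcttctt
Fcnb: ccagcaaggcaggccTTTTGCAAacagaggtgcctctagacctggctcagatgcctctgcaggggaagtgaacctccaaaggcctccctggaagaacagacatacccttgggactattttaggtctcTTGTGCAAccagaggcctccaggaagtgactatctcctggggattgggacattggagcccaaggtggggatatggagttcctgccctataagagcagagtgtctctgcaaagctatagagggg
Ltf: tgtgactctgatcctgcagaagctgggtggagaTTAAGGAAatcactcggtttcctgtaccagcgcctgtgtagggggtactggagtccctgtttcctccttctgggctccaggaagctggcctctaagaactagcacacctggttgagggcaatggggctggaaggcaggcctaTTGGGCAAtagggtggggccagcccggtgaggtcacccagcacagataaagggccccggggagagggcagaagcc

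The PU.1 core GAGGAAG was found in 5 of 5 primary granule promoters, beside 10.6% of all 32851 promoter windows of this length. In Mpo it occurs at 2 places, and in Bpi its reverse complement is repeated without a gap. The Bpi window extends past the annotated start of the gene (chr2:158258063), and both of its matches lie beyond that start. Of the 8 secondary granule promoters, 4 held the core. The C/EBP form TTNNGNAA was in none of the 5 primary granule promoters and in 6 of 8 secondary granule promoters, beside 36.8% of all windows. Fcnb, which has 2 C/EBP matches and no PU.1 core, therefore differs from the primary granule genes in these letters. The GFI1 core AAATCAC was in 2 of the 28 members' promoters, both of secondary granule genes, beside 2.75% of all windows. A match describes letters in a window and not a bound site, and no test was made.

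The deletion was checked first. The log2 signal of Card9 in wild-type cells was 8.42, 8.43 and 8.75 on the control surface and 8.08, 8.21 and 8.50 on the IC surface in experiments 1, 2 and 3. Without CARD9 it was 6.39, 5.94 and 5.70 on the control surface and 6.42, 6.01 and 5.56 on the IC surface. The genotypes did not overlap, and over both surfaces the difference was −2.40 (SE 0.15, limma adjusted p = 6.8e-05). The arrays of experiment 3 stood apart, with array medians of 5.27 to 5.39 beside 5.70 to 5.93 in the other 8. Within an experiment the medians were nearly equal, and whether the experiments were normalized together is not stated, so a difference among experiments and its p may include a difference in scaling. Of 10 markers of neutrophils, 10 stood above 95% of clusters on every array, beside 1 of 7 monocyte and macrophage markers (Ly6c2) and 0 of 8 B-cell, 0 of 8 eosinophil, basophil and mast cell, 0 of 7 T- and NK-cell and 0 of 7 erythroid markers. The globin genes Hbb-bt and Hba-a1 nevertheless reached log2 signals of 12.54 and 12.43. The labels number the experiments, each with all 4 groups, and p values measure the spread between these 12 arrays.

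The 34 members differed little between the 4 groups and more among the experiments. Myeloperoxidase, elastase, proteinase 3, cathepsin G, ficolin B and TREM-1 transcripts were highest in experiment 3 on each of 3 scales. The mean of the tertiary granule protease Mmp25 was lowest there on each scale, although after median centring not every array was. With genotype and surface fitted, 23 of 34 members differed among experiments at a limma adjusted p under 0.05, beside 88.1% of all clusters. After each array was centred on its median, 30 of 34 passed, beside 69.9% of all clusters, and after quantile normalization 22 of 34 passed, beside 68.4%. The members' share was thus below the background on the deposited scale, above it after centring and close to it after quantile normalization. The median cluster was lower by 0.40 on the log2 scale in experiment 3 than in experiment 1, and lower by 0.61 than in experiment 2, so differences between the means of experiments are given on the deposited scale and after median centring. The test is of any difference among the 3 experiments, and the direction is given as a description. In this bulk RNA, fewer cells of a type and less RNA per cell cannot be told apart.

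**Figure D1:**
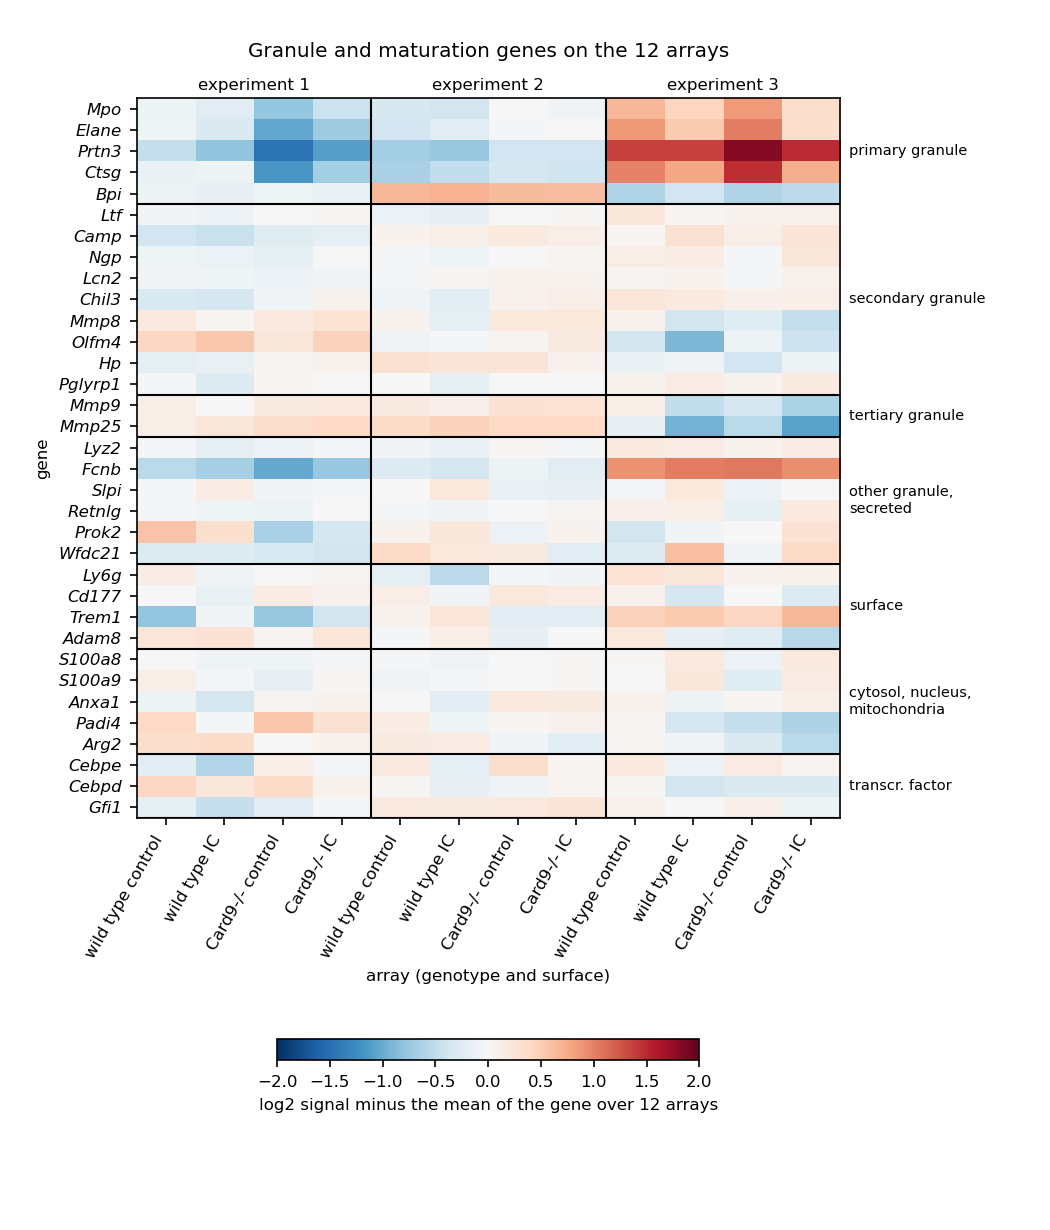
Log2 signal of each of the 34 members (rows, grouped by class) on each of the 12 arrays (columns, by experiment and group), minus the mean of the gene over the 12 arrays (colour, deposited scale). The columns of experiment 3 are red for Mpo, Elane, Prtn3, Ctsg, Fcnb and Trem1 and blue for Mmp25, while the 4 groups within an experiment look alike in most rows.

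Among the primary granule genes, Mpo encodes myeloperoxidase, which makes hypochlorous acid from hydrogen peroxide. Its log2 signal in wild-type cells was 10.95, 10.73 and 11.72 on the control surface and 10.82, 10.68 and 11.47 on the IC surface in experiments 1, 2 and 3. It was 10.27, 11.05 and 11.89, and 10.63, 10.98 and 11.41, in Card9-/- cells on the same surfaces. All 4 arrays of experiment 3 lay above the other 8, and within an experiment the groups spanned at most 0.68. The mean of experiment 3 exceeded that of experiment 1 by 0.96, or by 1.34 after median centring.

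Elane, the gene of neutrophil elastase, gave 10.40, 10.11 and 11.36 in wild-type cells on the control surface and 10.21, 10.26 and 11.02 on the IC surface. The Card9-/- values were 9.45, 10.47 and 11.52 on the control surface and 9.78, 10.50 and 10.81 on the IC surface. The 4 arrays of experiment 3 were again the highest, by 1.21 on average over experiment 1, or 1.59 after centring. Prtn3, the gene of proteinase 3, lies next to Elane in the genome and had the widest difference of any member.

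The log2 signal of Prtn3 was 9.0, 8.78 and 10.84 in wild-type cells on the control surface, and 8.69, 8.72 and 10.85 on the IC surface. In Card9-/- cells it was 8.0, 9.10 and 11.32, and 8.39, 9.09 and 10.97, on the same surfaces. Experiment 3 exceeded experiment 1 by 2.48 (limma adjusted p among experiments = 1.755e-06), or by 2.85 after centring, and no array of experiment 3 came near one of the other experiments. Ctsg, the gene of cathepsin G, gave 9.69, 9.18 and 10.82, and 9.73, 9.34 and 10.60, in wild-type cells on the control and the IC surface. The Card9-/- cells gave 8.66, 9.47 and 11.30, and 9.14, 9.43 and 10.55. Its excess of experiment 3 over experiment 1 was 1.51 (limma adjusted p among experiments = 0.0001006), or 1.89 after centring.

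Bpi, the gene of bactericidal/permeability-increasing protein, did not follow these 4 genes. Its log2 signal lay between 4.10 and 4.18 in the 4 arrays of experiment 1, between 4.89 and 4.96 in experiment 2 and between 3.67 and 3.88 in experiment 3. Experiment 2 was highest (limma adjusted p among experiments = 1.089e-06), also after centring, where experiments 1 and 3 differed by −0.02. These values were below the median of all clusters on every array, the only member of which this was so, and a dim cluster can move with the array as a whole.

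Fcnb encodes ficolin B, a lectin of innate immunity made by immature myeloid cells. Its log2 signal was 8.87, 9.15 and 10.30 in wild-type cells on the control surface and 8.74, 9.07 and 10.43 on the IC surface. For Card9-/- cells it was 8.39, 9.30 and 10.45, and 8.64, 9.19 and 10.33. Its ordering of experiments was that of Elane and Prtn3, with an excess of experiment 3 over experiment 1 of 1.72 (limma adjusted p among experiments = 7.304e-07), or 2.10 after centring. It had the smallest p of all members in this test.

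**Figure D2:**
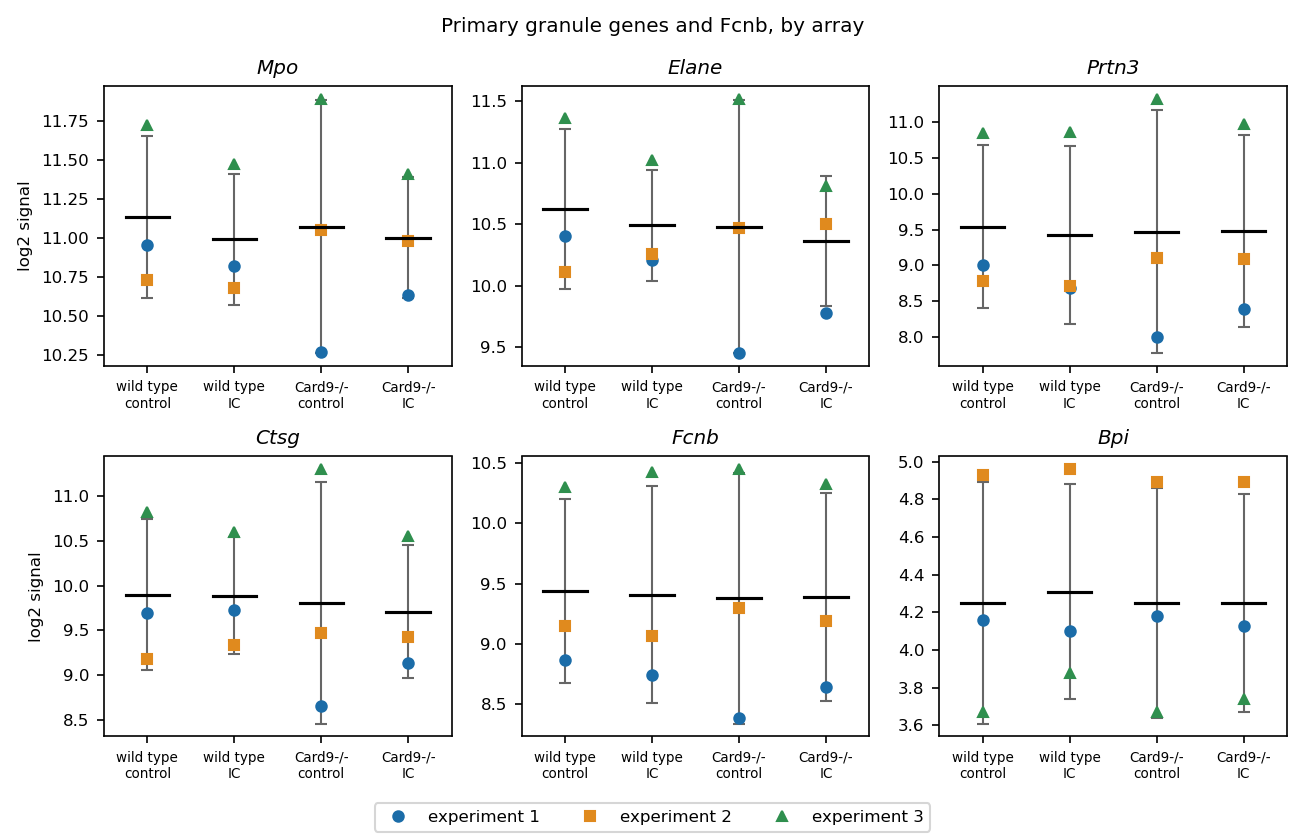
Log2 signal (deposited scale, y axes do not start at 0) of the 5 primary granule genes and Fcnb on each array, by group (x axis) and experiment (symbols); black lines are group means and grey bars 1 SD over 3 arrays. Experiment 3 is highest in every group for Mpo, Elane, Prtn3, Ctsg and Fcnb, and experiment 2 for Bpi.

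On the deposited scale, 9 of 34 members had all 4 arrays of experiment 3 above the other 8, beside 6.15% of all clusters, namely Mpo, Elane, Prtn3, Ctsg, Ltf, Pglyrp1, Lyz2, Fcnb and Trem1. After median centring 20 of 34 did, beside 17.5%, and after quantile normalization 7 of 34 did, beside 16.1%. Mpo, Elane, Prtn3, Ctsg, Fcnb and Trem1 were among them on all 3 scales, while Ltf, Pglyrp1 and Lyz2 were not after quantile normalization. Trem1, the gene of a receptor that amplifies neutrophil and monocyte activation, had means of 10.68, 11.13 and 11.68 in the 3 experiments (limma adjusted p = 6.764e-05), and experiment 3 exceeded experiment 1 by 1.0 on the deposited scale and 1.38 after centring. The order of its experiments was that of Fcnb. All 4 arrays of experiment 3 lay below the other 8 for 3 members on the deposited scale, Bpi, Olfm4 and Mmp25, beside 50.1% of all clusters, for 0 members after centring, beside 17.1%, and for 6 after quantile normalization, beside 16.1%.

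The secondary granule genes moved far less among experiments, and their direction depended on the scale. The median excess of experiment 3 over experiment 1 was 0.14 for the 9 genes on the deposited scale, 0.52 after centring and −0.14 after quantile normalization, against 1.21, 1.59 and 1.23 for the 5 primary granule genes. Ltf, the gene of the iron-binding protein lactoferrin, lay between 12.44 and 12.83 over the 12 arrays, and Ngp, the gene of neutrophilic granule protein, between 12.49 and 12.91. Lcn2, whose product lipocalin 2 binds bacterial siderophores, varied least among the 9, from 12.87 to 13.08. Camp, the gene of the antimicrobial peptide precursor cathelicidin, was lower in experiment 1 (11.90 to 12.15) than in experiments 2 and 3 (12.40 to 12.66), and experiment 1 was also lower after centring and after quantile normalization.

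Chil3, which encodes a chitinase-like lectin, ranged from 11.13 to 11.71, and Pglyrp1, which encodes a peptidoglycan recognition protein, from 12.13 to 12.56. Hp, the gene of the haemoglobin-binding protein haptoglobin, ranged from 10.95 to 11.64, with experiment 3 minus experiment 1 at −0.13 on the deposited scale and 0.25 after centring. Mmp8, the gene of neutrophil collagenase, lay between 12.34 and 12.58 in experiment 1 and between 11.83 and 12.37 in experiment 3, a difference in means of −0.43 that was −0.05 after centring (limma adjusted p among experiments = 0.00836 and 0.1067). Olfm4, the gene of olfactomedin 4, known from a subset of neutrophils, had means of 11.62, 11.24 and 10.76 in experiments 1, 2 and 3. For Olfm4, experiment 3 was below experiment 1 on the deposited scale (−0.86), after centring (−0.48) and after quantile normalization (−0.93).

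The tertiary granule genes encode the secreted gelatinase B (Mmp9) and the membrane-anchored protease Mmp25. The log2 signal of Mmp25 was 10.58, 10.81 and 10.28 in wild-type cells on the control surface and 10.67, 10.91 and 9.50 on the IC surface. In Card9-/- cells it was 10.79, 10.84 and 9.91, and 10.84, 10.85 and 9.38. On the deposited scale the arrays of experiment 3 were the 4 lowest, with a mean below that of experiment 1 by 0.95, or by 0.58 after centring and 0.74 after quantile normalization. After centring the arrays of experiment 3 were no longer all below the others. Within experiment 3 the IC arrays were lower than the control arrays by 0.79 in wild-type and 0.52 in Card9-/- cells. In experiments 1 and 2 the IC array was the higher in all 4 pairs, by 0.01 to 0.10.

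Mmp9 gave 12.54, 12.61 and 12.53 in wild-type cells on the control surface and 12.44, 12.52 and 11.92 on the IC surface. The Card9-/- cells gave 12.60, 12.72 and 12.09, and 12.61, 12.69 and 11.79. On the deposited scale experiment 3 held the low values in 3 of the 4 groups, and the wild-type control array did not share them. Experiment 3 minus experiment 1 was −0.46 on that scale (limma adjusted p among experiments = 0.002897) and −0.74 after quantile normalization, but −0.09 after median centring, where the test was not passed (limma adjusted p = 0.7838). Over both genotypes, the IC difference of Mmp9 was −0.05, −0.06 and −0.45 in experiments 1, 2 and 3, and its mean of −0.19 did not pass the test (limma adjusted p = 0.624).

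Lyz2, the gene of lysozyme, ranged from 12.56 to 12.93, and Retnlg, a resistin-like gene of myeloid cells, from 12.36 to 12.73. The calprotectin subunits S100a8 (12.43 to 12.75) and S100a9 (12.26 to 12.73) spanned under 0.5 over all 12 arrays. Ly6g, the gene of the surface antigen that labels these cells, lay between 11.84 and 12.64. In total 10 of 34 members stood above 99% of clusters on every array, and 7 lay within 1.5 of the brightest cluster of every array. The deposited values flag no saturation, so differences of such bright clusters may be understated.

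Beside the experiment 3 values, the summed linear signal of 8 B-cell markers was 1840 to 4459 there, 660.5 to 1683 in experiment 1 and 316.6 to 342.8 in experiment 2. The sum of 8 eosinophil, basophil and mast cell markers was 4322 to 9268 in experiment 3 and 2158 to 4000 in the other experiments. The sum of 7 T- and NK-cell markers was 1196 to 1502 in experiment 3 and 522.6 to 658.5 in the other experiments. Most of this lay in Nkg7, which is also on the list of progenitor and promyelocyte genes, and without it (left out after its values were seen) the sum of the other 6 was 325.3 to 577 in experiment 3 and 268.5 to 393 elsewhere. The sum of 12 progenitor and promyelocyte genes was 3017 to 3191 in experiment 1, 3891 to 4054 in experiment 2 and 3526 to 4428 in experiment 3. For 7 monocyte and macrophage markers the sum was 5812 to 6479 in experiment 3, 5048 to 6291 in experiment 1 and 6752 to 8479 in experiment 2. For 7 erythroid markers it was 3055 to 5543, 958.4 to 11830 and 7950 to 12120 in the same order. For 5 megakaryocyte and platelet markers it was 1273 to 1450, 1008 to 1092 and 1164 to 1321. For 13 mature neutrophil genes it was 27940 to 34320, 27340 to 33640 and 32420 to 34100. The last sum hides opposite directions. On the deposited scale the mean of Cd101 was 9.88 in experiment 1 and 7.56 in experiment 3. Itga4, Mxd1, Cxcr2, Csf3r, Cxcr4, Alpl and Mme were also lower in experiment 3, as was the median cluster. Il1b (11.16 and 12.56), Il1r2, Fcgr4 and Msrb1 were higher there, and Clec4d was at 11.84 in both. In the monocyte and macrophage list the brightest marker, Ly6c2, had means of 11.90, 11.96 and 12.30 in experiments 1, 2 and 3. Ly6c2 and F13a1 were higher in experiment 3 than in experiment 1, while Csf1r, Ccr2, Cx3cr1, Ms4a6c and Adgre1 were lower. The bright globin genes carry much of the erythroid sum. The part of these lists in the differences among experiments was not tested.

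With IC none of the 34 members passed the threshold in either genotype, and neither did any other cluster. The count therefore does not set the members apart. Their differences were small. In wild-type cells the members' log2 differences lay between −0.35 (Cebpe) and 0.31 (Trem1), that is, from 0.785-fold to 1.24-fold. In limma, 0 of 34 members passed an adjusted p of 0.05, beside 0.0% of all clusters. At an unadjusted p under 0.05, 6 of 34 members and 2775 of 28944 clusters passed. The 95% confidence intervals of all 34 differences lay within 1 on the log2 scale in each direction, so that none reached a doubling or a halving. Those of 97.9% of all clusters did so too. The intervals of 22 members (64.7%) lay within 0.5, beside 73.4% of all clusters.

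The median difference of the 34 members in wild-type cells was −0.08, with 10 above 0, beside a median of 0.04 and 17269 of 28944 above 0 over all clusters. By class, the medians were −0.12 for primary, −0.07 for secondary and −0.23 for tertiary granule genes. Cebpe encodes C/EBPε, the factor required for secondary granule genes and terminal granulocyte differentiation. Its log2 signal in wild-type cells was 9.81, 10.24 and 10.24 on the control surface and 9.45, 9.87 and 9.92 on the IC surface. The IC array was lower in each of the 3 experiments by 0.32 to 0.37, with a mean difference of −0.35 (SE 0.11, 95% interval −0.59 to −0.10, limma adjusted p = 0.4379).

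Cd177 encodes a surface protein that presents proteinase 3 in human neutrophils. In wild-type cells it gave 11.77, 11.89 and 11.83 on the control surface and 11.60, 11.70 and 11.41 on the IC surface, so that the 2 groups did not overlap. The difference was −0.26 (SE 0.10, limma adjusted p = 0.4862). Slpi encodes an inhibitor of elastase and cathepsin G. Its log2 signal was 11.11, 11.14 and 11.10 on the control surface and 11.29, 11.35 and 11.35 on the IC surface, again without overlap and in the opposite direction, with a difference of 0.22 (SE 0.09, limma adjusted p = 0.4987).

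Padi4 encodes the enzyme that citrullinates histones before extracellular traps form. Its log2 signal in wild-type cells was 10.42, 10.17 and 10.06 on the control surface and 10.00, 9.94 and 9.69 on the IC surface, a difference of −0.34 (SE 0.15, limma adjusted p = 0.4987). Anxa1, the gene of the anti-inflammatory protein annexin A1, gave 11.73, 11.85 and 11.92 on the control surface and 11.49, 11.60 and 11.73 on the IC surface, a difference of −0.22 (SE 0.10, limma adjusted p = 0.4987). For both genes the IC array was below the control array of its experiment in all 3 experiments.

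In Card9-/- cells the IC differences lay between −0.19 and 0.26, with a median of 0.01 and 22 of 34 above 0. In limma, 0 of 34 passed, beside 0.0% of all clusters, and 0 of 34 members and 872 clusters had an unadjusted p under 0.05. All 34 intervals lay within 1 on the log2 scale in each direction, beside 98.6% of all clusters, and 28 (82.4%) within 0.5, beside 81.6%. The smallest p among members with 1 direction in all experiments was that of S100a9, with 12.34, 12.49 and 12.26 on the control surface and 12.54, 12.52 and 12.67 on the IC surface. The IC group was the higher, by 0.21 (SE 0.11, limma adjusted p = 0.9998). Its partner S100a8 differed by 0.14, Retnlg by 0.18 and Ngp by 0.17, while Cebpe differed by −0.19 (10.17, 10.39 and 10.21 on the control surface, 10.01, 10.09 and 10.10 on the IC surface, limma adjusted p = 0.9998 for each).

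**Figure D3:**
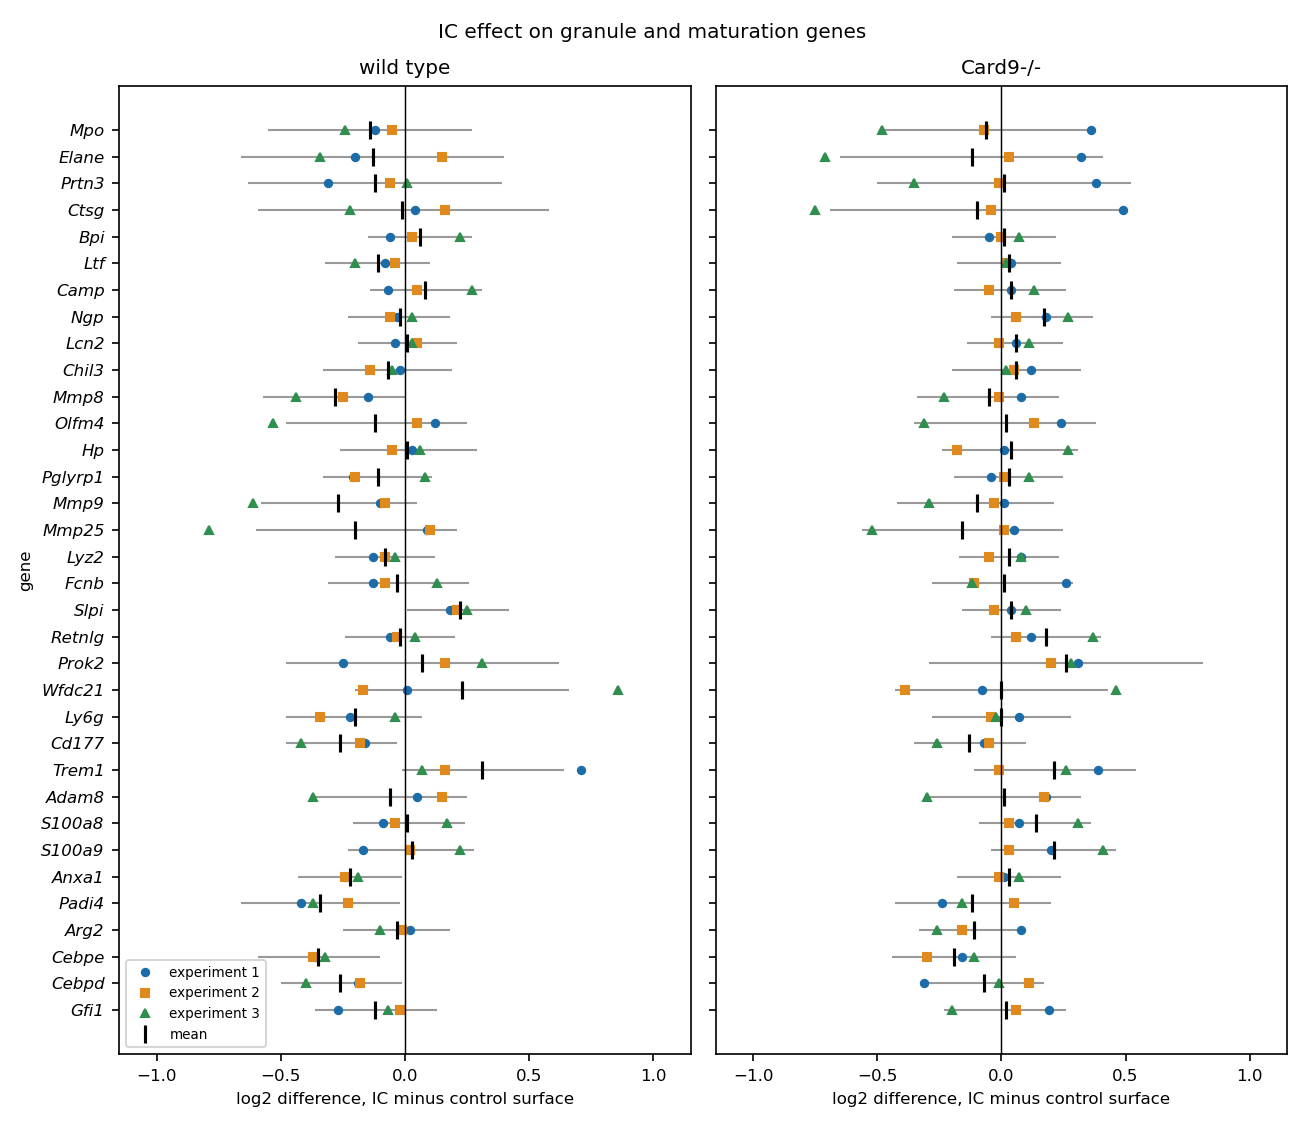
IC minus control log2 signal (x axis) of each of the 34 members (y axis) in wild-type (left) and Card9-/- cells (right). Symbols are the 3 experiments, black ticks their mean and grey lines the 95% confidence intervals of the fit, and every interval lies between −1 and 1.

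The IC effects of the genotypes were compared directly by the interaction, the effect in Card9-/- cells minus that in wild-type cells. In limma, 0 of 34 members passed, beside 0.0% of all clusters, and 0 members and 1066 clusters had an unadjusted p under 0.05. The median over the members was 0.13, with 27 of 34 above 0, beside −0.03 and 12607 of 28944 clusters. Anxa1 had the smallest p, with an interaction of 0.25 (SE 0.14, 95% interval −0.05 to 0.55, limma adjusted p = 0.9992). It was 0.25, 0.23 and 0.26 in the 3 experiments. Retnlg (0.20), Ngp (0.19), Mmp8 (0.23) and Slpi (−0.18) followed, each in 1 direction in all 3 experiments (limma adjusted p = 0.9992).

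Averaged over the genotypes, IC changed 0 of 34 members in limma, beside 0.0104% of all clusters, with 4 members and 2609 clusters at an unadjusted p under 0.05. Their differences lay between −0.27 and 0.26. Cebpe was lower with IC in all 6 pairs of arrays, by 0.11 to 0.37, with a mean of −0.27 (SE 0.08, limma adjusted p = 0.4243), and Cd177 in all 6 pairs by 0.05 to 0.42, with a mean of −0.19 (SE 0.07, limma adjusted p = 0.4958). In total 2 of 34 members (5.88%) differed in 1 direction in all 6 pairs, beside 6.72% of all clusters. Trem1 (0.26), Padi4 (−0.23) and Cebpd (−0.16), the gene of another C/EBP factor of late granulocytes, had 1 direction in each experiment's mean (limma adjusted p = 0.5161, 0.5508 and 0.5681).

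Between the genotypes no member passed the test, and the mitochondrial arginase gene Arg2 came closest. On the control surface 0 of 34 members passed in limma, beside 0.038% of all clusters, with 1 member and 1344 clusters at an unadjusted p under 0.05. On the IC surface 0 of 34 passed, beside 0.162%, with 4 members and 2643 clusters at an unadjusted p under 0.05. Over both surfaces 0 of 34 passed, beside 0.529%, with 5 members and 2920 clusters at an unadjusted p under 0.05, and all differences lay between −0.34 and 0.24. The sample titles do not say whether both arrays of a genotype in an experiment share a preparation of cells. The fit treats them as independent, so if they do, the SE and p over both surfaces may be too small. The pairs of arrays on both surfaces of an experiment would then also not be independent.

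Arg2 encodes arginase 2, which splits arginine in mitochondria. Its log2 signal in wild-type cells was 11.87, 11.70 and 11.55 on the control surface and 11.89, 11.69 and 11.45 on the IC surface. Its Card9-/- values were 11.52, 11.47 and 11.24, and 11.60, 11.31 and 10.98. The Card9-/- array was lower in all 6 pairs, by 0.23 to 0.47, although the ranges of the genotypes overlapped across experiments. The difference was −0.34 over both surfaces (SE 0.07, 95% interval −0.49 to −0.19, limma adjusted p = 0.0648), −0.30 on the control surface (limma adjusted p = 0.9537) and −0.38 on the IC surface (limma adjusted p = 0.1853). Quantile normalization, limma-trend, a random experiment block and a filter on dim clusters each brought it past the threshold, with limma adjusted p values of 0.03868 to 0.04847, and without the block it had 1.0.

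Anxa1 in Card9-/- cells was 11.89, 12.03 and 11.88 on the control surface and 11.90, 12.02 and 11.95 on the IC surface. These lay above the wild-type values given above on the IC surface in each experiment, with a difference of 0.35 there (SE 0.10, limma adjusted p = 0.2294) and 0.22 over both surfaces (SE 0.07, limma adjusted p = 0.2486). Slpi in Card9-/- cells was 11.08, 11.00 and 11.02 on the control surface and 11.12, 10.97 and 11.12 on the IC surface. It was lower than in wild-type cells in all 6 pairs, with a difference of −0.26 on the IC surface (SE 0.09, limma adjusted p = 0.3838) and −0.17 over both (SE 0.07, limma adjusted p = 0.372).

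Adam8, the gene of a membrane protease that sheds adhesion molecules, was the third member with a lower Card9-/- array in all 6 pairs, with a mean of −0.22 (SE 0.10, limma adjusted p = 0.4824). These 3 of 34 members (8.82%) compare with 7.76% of all clusters that had 1 direction in all 6 pairs. Cebpe was higher in Card9-/- cells by 0.32 on the IC surface (SE 0.11, limma adjusted p = 0.3862) and by 0.24 over both (SE 0.08, limma adjusted p = 0.3018). Cd177 was higher by 0.18 on the IC surface (SE 0.10, limma adjusted p = 0.6706). On the control surface the next genes after Arg2 were Adam8 (−0.26), Cebpd (−0.15), Camp (0.12) and Slpi (−0.08), with limma adjusted p values of 0.9537 to 0.96.

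**Figure D4:**
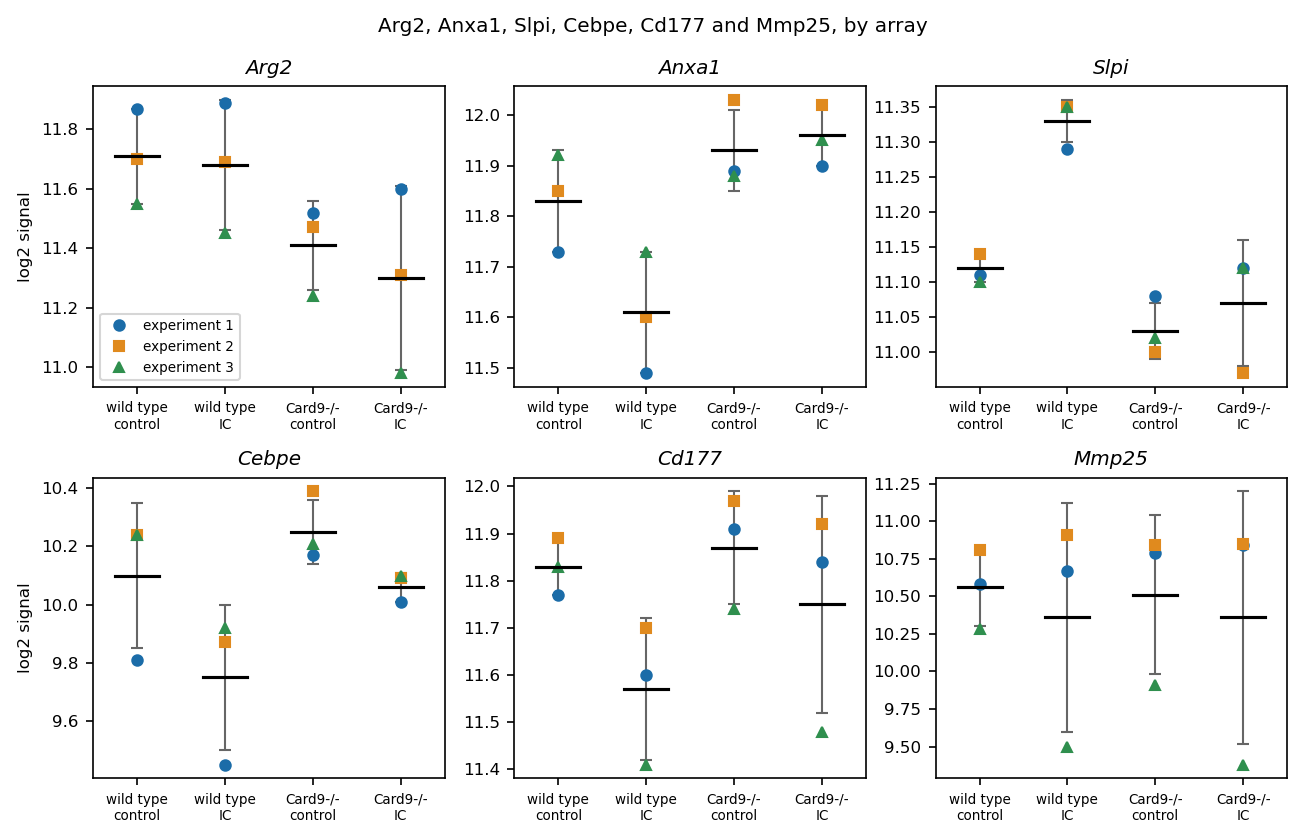
Log2 signal (deposited scale, y axes do not start at 0) of Arg2, Anxa1, Slpi, Cebpe, Cd177 and Mmp25 on each array, by group (x axis) and experiment (symbols); black lines are group means and grey bars 1 SD over 3 arrays. Slpi stands higher in the wild-type IC group than in the other 3, and the low arrays of Mmp25 are those of experiment 3.

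Within single experiments Mpo, Elane, Prtn3, Ctsg and Fcnb showed larger differences between the genotypes, of opposite direction in experiments 1 and 2. Bpi did not, with 0.02 and 0.03 in experiment 1 and −0.04 and −0.07 in experiment 2 on the control and the IC surface. In experiment 1, on the control surface, Card9-/- minus wild type was −0.68 for Mpo, −0.95 for Elane, −1.0 for Prtn3, −1.03 for Ctsg and −0.48 for Fcnb. On the IC surface of experiment 1 the values were −0.19, −0.43, −0.31, −0.58 and −0.10 in the same order. In experiment 2 these 5 genes were higher in Card9-/- cells, by 0.15 to 0.36 on the control surface and 0.09 to 0.37 on the IC surface.

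In experiment 3 the control surface gave 0.15 to 0.48 and the IC surface −0.21 to 0.12 for the same genes. The median over the 5 primary granule genes (Bpi included, Fcnb not) and both surfaces was −0.65, 0.30 and 0.05 in experiments 1, 2 and 3, beside 0.12, 0.09 and −0.05 for the 9 secondary granule genes. Each experiment holds 1 array per group, so a difference within 1 experiment could not be tested. The means over experiments and both surfaces lay between −0.14 and 0.00 for the 5 primary granule genes. They were −0.02 for Mpo (SE 0.13), 0.00 for Prtn3 (SE 0.16) and −0.13 for Ctsg (SE 0.19).

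**Figure D5:**
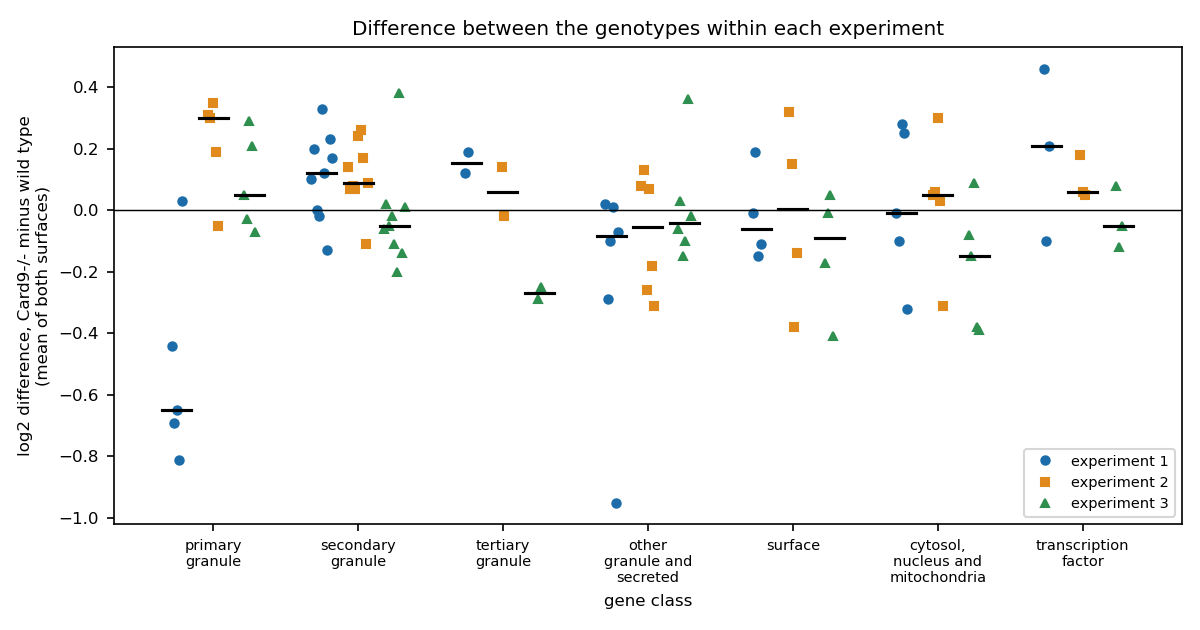
Card9-/- minus wild-type log2 signal, averaged over both surfaces (y axis), of each member by class (x axis) and experiment (symbols); black lines are the medians of the class in an experiment. Primary granule genes other than Bpi lie below −0.4 in experiment 1 and above 0 in experiment 2.

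Marker genes of other cells differed between the same arrays. In experiment 1 the summed linear signal of 7 erythroid markers was 11830 and 8343 in wild-type and 1014 and 958.4 in Card9-/- cells on the control and the IC surface. In experiment 2 it was 12120 and 9840 in wild-type and 9932 and 7950 in Card9-/- cells, and in experiment 3 it was 3055 and 5359 beside 4725 and 5543. The bright globin genes carry much of these sums. The median log2 difference of the 7 erythroid markers between the genotypes in experiment 1 was −0.81 on the control and −0.52 on the IC surface. The sum of 8 B-cell markers in experiment 1 was 774.3 and 660.5 in wild-type and 1624 and 1683 in Card9-/- cells, and in experiment 2 it was 323 and 319.3 beside 316.6 and 342.8. The sum of 8 eosinophil, basophil and mast cell markers was lower in Card9-/- cells in experiment 1 (3001 and 3076 beside 3777 and 3462 in wild-type cells) and higher in experiment 2 (4000 and 3506 beside 2674 and 2158) and experiment 3 (9268 and 7674 beside 4772 and 4322). In experiments 1 and 2 this sum had the direction of Mpo, Elane, Prtn3 and Ctsg. On the IC surface of experiment 3 it did not, as Mpo (−0.07), Elane (−0.21) and Ctsg (−0.05) were lower in Card9-/- cells there and only Prtn3 (0.12) was higher.

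The sum of 12 progenitor and promyelocyte genes was 3025 and 3116 in wild-type beside 3017 and 3191 in Card9-/- cells in experiment 1, 3891 and 4054 beside 4045 and 4049 in experiment 2, and 3662 and 3526 beside 4428 and 4373 in experiment 3. Bright cycling genes carry much of it, such as Mki67 with log2 signals of 9.57 to 10.42. Members of this list that were lower in Card9-/- cells in experiment 1 include Nkg7 (8.11 and 7.99 in wild-type, 7.42 and 7.45 in Card9-/- cells) and Gata2 (6.88 and 6.68 beside 6.43 and 6.36). Others were higher in Card9-/- cells there, such as Myb (8.85 and 8.68 in wild-type, 9.14 and 9.18 in Card9-/- cells) and Cebpa (7.94 and 7.8 beside 8.17 and 8.01). The list thus had no common direction in experiment 1. The part of these cells in the result was not tested.

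The remaining members had no common direction. Prok2, the gene of the chemokine-like prokineticin 2, ranged from 6.08 to 7.31, and its Card9-/- array was below wild type in experiment 1 and above it on both surfaces of experiment 3. Wfdc21, a gene of the WAP protein family, ranged from 9.99 to 10.96, with its highest arrays, 10.96 and 10.75, in the IC groups of experiment 3. Gfi1, the gene of a repressor needed for granulocyte development, lay between 7.47 and 8.19 and Cebpd between 8.12 and 8.91.

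Other genes of granules and maturation were read from further lists. With IC, 0 of 23 further granule and exocytosis genes, 0 of 13 mature neutrophil genes, 0 of 12 progenitor and promyelocyte genes and 0 of 12 granulocyte transcription factors passed in limma in either genotype, beside 0.0% of all clusters. Between the genotypes over both surfaces, 1 of 23, 1 of 13, 0 of 12 and 1 of 12 passed, each lower in Card9-/- cells, beside 0.529% of all clusters (120 lower and 33 higher). Chil1, which encodes a chitinase-like protein of secondary granules, fell by 0.40 (SE 0.07, limma adjusted p = 0.0414). Its log2 signal was 12.01, 12.24 and 12.16, and 12.10, 12.30 and 12.02, in wild-type cells and 11.57, 12.08 and 11.73, and 11.48, 11.91 and 11.66, in Card9-/- cells on the control and the IC surface.

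Il1r2, the gene of the decoy receptor of interleukin-1, differed by −0.44 (SE 0.08, limma adjusted p = 0.04313). Its wild-type log2 signal was 10.95, 10.22 and 11.82 on the control surface and 11.15, 10.55 and 12.26 on the IC surface, and in Card9-/- cells it was 10.18, 9.69 and 11.60, and 10.66, 10.11 and 12.06. Rxra, the gene of a nuclear receptor partner of retinoic acid receptors, differed by −0.73 (SE 0.13, limma adjusted p = 0.03682). It was lower in Card9-/- cells by 0.86, 0.69 and 0.62 in experiments 1, 2 and 3. For all 3 genes the levels of the genotypes overlapped across experiments, and the Card9-/- mean was the lower in each experiment. The 3 calls were lost without the experiment block (limma adjusted p = 1.0 each) and in an unmoderated factorial model, where no cluster passed in this comparison. They were also lost without experiment 1 (limma adjusted p = 0.4988, 0.5079 and 0.3537 for Chil1, Il1r2 and Rxra) and without experiment 2 (0.2872, 0.5331 and 0.1835). That of Chil1 was also lost without experiment 3 (limma adjusted p = 0.08447), that of Il1r2 with a random block (0.1082) and that of Rxra with median centring (0.05153).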

How the data were processed

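RNA of the 12 samples (150 ng each) was hybridised to Affymetrix mouse gene arrays. The authors deposited log2 signals per transcript cluster, 35556 rows in all. How these were summarized and normalized is not stated in the labels or methods. The 6612 control rows were left out, 28944 clusters were tested without a filter, and the platform annotation named 1 gene for 21789, several for 1621 and none for 5534. A single limma model (version 3.58.1 in R 4.3.3, with empirical Bayes moderation) covered the 4 groups and took the experiment as a block, 6 residual and 5.4 prior degrees of freedom. Deviations from the group means correlated at 0.671 to 0.867 between arrays of 1 experiment and at −0.727 to 0.355 otherwise. Tests are two-sided, adjusted by Benjamini-Hochberg over all clusters, with a threshold of 0.05, and the code was tested on simulated data. Tables and motifs were computed in Python 3.11.15. The number of arrays limits the precision.

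Members and lists were chosen with earlier results of these data known. Given with error and p are, per comparison, the 5 members with the smallest p among those with 1 direction in all 3 experiments (among experiments, the 5 smallest) and any past the threshold, of other lists those past it, and Card9. Mmp9 beside its p, Mpo, Prtn3 and Ctsg beside their SE between genotypes, Mmp8, Mmp25, Chil3, Ltf and the marker genes named were added for the description after their values were seen. Alternatives were no block, a random block, quantile normalization, median centring, a filter on dim clusters, limma-trend, robust eBayes, only the groups compared, an unmoderated factorial model and leaving out each experiment.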

Additional observations from a re-analysis of the deposited data

Results flagged for a closer look

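The secondary granule genes Ltf and Chil3 had IC differences of opposite direction in the genotypes in all 3 experiments. Ltf differed by −0.11 on the log2 scale in wild-type cells (−0.08, −0.04 and −0.20 in experiments 1, 2 and 3) and by 0.03 in Card9-/- cells (0.04, 0.02 and 0.02). The test of the difference itself gave an interaction of 0.13 (SE 0.13, limma adjusted p = 0.9992). Chil3 differed by −0.07 in wild-type cells (−0.02, −0.14 and −0.05) and by 0.06 in Card9-/- cells (0.12, 0.05 and 0.02), with an interaction of 0.13 (SE 0.17, limma adjusted p = 0.9992). A difference between the genotypes was thus not shown by the test for either gene.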

How the results depend on the processing

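In the 7 comparisons of surface and genotype, 0 of 34 members passed under each alternative run, with 1 exception. Between the genotypes over both surfaces 1 member, Arg2 (lower in Card9-/- cells by 0.34 on the log2 scale each time), passed with the experiment as a random block, with quantile normalization, with clusters above the median signal only and with limma-trend (limma adjusted p = 0.04331, 0.04847, 0.04297 and 0.03868). Without the replicate block 0 members passed in any of the 7 comparisons, and Arg2 had a limma adjusted p of 1.0. The count of members that differed among experiments, 23, ranged from 12 to 19 when 1 experiment was left out (14, 19 and 12 on leaving out experiment 1, 2 or 3). The share of all clusters in these runs is not given, so the counts do not set the members apart from other clusters. Without experiment 3, Prtn3 and Ctsg no longer passed (limma adjusted p = 0.1326 and 0.8542). Card9 lost its call on single surfaces without experiment 2 (limma adjusted p = 0.304 and 0.2023), on the IC surface without the block (0.07767) and in all 3 genotype comparisons in the factorial model (0.09938 to 0.3387). No named difference changed direction, and the cause of these shifts was not tested. Over all clusters, 153 passed between the genotypes over both surfaces, 0 in an unmoderated factorial model, 3 without the block, 208 with a random block, and 39, 9 and 204 when experiment 1, 2 or 3 was dropped. A second cluster for a member could not be tried, because each member has 1. The test among experiments has no value without the block. The log2 signals carry no background or saturation flags, so the dimmest member (Bpi) and the brightest are the least secure.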
